A study of Homo sapiens with 4 samples.

Results

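Monocytes arise from myeloid progenitors under the control of a small circuit of transcription factors, and 9 genes of this circuit were followed after ANP32B knockdown in MV4-11 cells. The genes were SPI1, CEBPA, CEBPB, CEBPD, CEBPE, IRF8, KLF4, EGR1 and ZEB2, chosen by symbol from the 18885 genes listed for the series. Of the 9, 8 were analysed, and CEBPD was not analysed here. MV4-11 is a human AML cell line of monocytic type, and all 4 RNA-seq libraries came from it. In 2 libraries (sh-NC) ANP32B was left intact, and in 2 libraries (sh-ANP32B) it was knocked down with an shRNA. The labels give these control cells no shRNA, while the methods name an sh-NC control. Transduction and selection therefore cannot be told apart from the loss of ANP32B if the control cells carried no hairpin. Nothing in the labels says whether the 2 libraries of a group came from separate cultures, so the p-values measure the spread between these libraries only.

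In this circuit SPI1 encodes PU.1, an ETS factor that opens myeloid enhancers and is needed for the monocyte and granulocyte lines. The C/EBP factors are bZIP proteins that bind as dimers beside PU.1, with CEBPA acting in progenitors, CEBPB in emergency granulopoiesis and macrophages, and CEBPE late in granulocyte maturation. IRF8 pairs with PU.1 and steers progenitors to monocytes and dendritic cells, KLF4 and EGR1 act further along the monocyte path, and ZEB2 is a zinc finger repressor that keeps monocyte and dendritic fates apart.

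The promoters of these genes are shown first, because the factors of this circuit are known to act on each other's genes. Start sites from RefSeq (GRCh38.p14) were used for 7 of the 8 genes, and the promoter of SPI1 was not analysed here. The 250 bases before the start were searched on both strands for 8 motifs. These were GAGGAA (PU.1 and other ETS factors), TTGCNNAA (C/EBP), GCGNGGGCG (EGR), the ISRE of IRF factors, CACCTG (ZEB), CCACCC (KLF), TTCNNNGAA (STAT) and the CArG box of serum response factor. The shares of all promoters given below are for windows of the same length. The 4 windows printed overlap no annotated exon, and they were picked as the 3 C/EBP genes whose levels differ widely and EGR1 because it holds the most matches. They run 5′ to 3′ on the strand of the gene, with the matches in capitals. The CEBPE window lies inside the gene span of the annotation, which starts farther upstream.
CEBPA, chr19:33302535-33302784, minus strand: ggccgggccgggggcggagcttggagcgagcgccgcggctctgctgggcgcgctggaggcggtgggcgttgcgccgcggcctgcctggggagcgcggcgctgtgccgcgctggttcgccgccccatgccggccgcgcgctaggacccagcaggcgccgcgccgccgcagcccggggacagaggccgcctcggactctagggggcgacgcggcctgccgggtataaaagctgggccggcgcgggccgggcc
CEBPB, chr20:50190333-50190582, plus strand: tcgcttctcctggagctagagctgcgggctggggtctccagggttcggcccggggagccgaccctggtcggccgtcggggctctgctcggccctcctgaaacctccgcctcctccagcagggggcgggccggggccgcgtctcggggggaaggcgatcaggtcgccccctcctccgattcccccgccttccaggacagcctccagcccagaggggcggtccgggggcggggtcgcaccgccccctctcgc
CEBPE, chr14:23119256-23119505, minus strand: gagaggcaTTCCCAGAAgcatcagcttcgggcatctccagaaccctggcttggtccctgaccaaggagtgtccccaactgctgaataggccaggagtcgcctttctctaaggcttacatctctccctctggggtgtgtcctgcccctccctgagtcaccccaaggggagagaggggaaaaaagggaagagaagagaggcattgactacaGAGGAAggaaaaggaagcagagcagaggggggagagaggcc
EGR1, chr5:138465229-138465478, plus strand: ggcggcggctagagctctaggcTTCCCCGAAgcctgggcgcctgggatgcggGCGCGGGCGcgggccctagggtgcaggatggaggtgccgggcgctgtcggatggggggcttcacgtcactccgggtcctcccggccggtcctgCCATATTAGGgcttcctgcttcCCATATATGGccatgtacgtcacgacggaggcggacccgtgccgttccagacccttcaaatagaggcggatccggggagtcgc

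The window of CEBPA and that of the upstream CEBPB start held no match. CEBPE held GAGGAA at 41 to 36 bases before the start, a match present in 23.6% of 35116 promoters, and TTCCCAGAA, a match to the STAT motif that 6.57% of promoters hold. EGR1 likewise had a STAT match, TTCCCCGAA. EGR1 held 2 CArG boxes, CCATATTAGG and CCATATATGG, and a CArG box was found in 1.16% of all promoters. EGR1 also held GCGCGGGCG, a match to the EGR motif that 8.41% of promoters hold. No match overlapped another within the printed windows. GC content was 81.2% for CEBPA, 75.6% for this CEBPB window, 57.2% for CEBPE and 68.4% for EGR1, against a median of 58.0% over all promoters. KLF4, not printed, held 1 GAGGAA and 1 EGR match. The downstream start of CEBPB, also not printed, had 1 CCACCC match. Its window ends directly before the annotated gene start at 50190830, whereas the printed CEBPB window ends farther upstream. The windows of IRF8 and ZEB2, which overlap exons, held 1 CACCTG match (IRF8) and 1 ISRE match (ZEB2). Like that of CEBPE, the windows of IRF8, ZEB2 and KLF4 lie inside the annotated gene spans. The bases before the annotated starts of these genes were therefore not searched. These matches describe letters and do not show binding.

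The deposited values are TPM, in which reads per gene length are set to a common total. Read numbers are lost in this unit, and the sequencing depth is therefore unknown. Totals of the listed genes lay between 997271 and 998546 TPM, and mitochondrial genes held 15.4% to 15.9% in sh-NC and 17.4% to 17.6% in sh-ANP32B. ANP32B itself was at 358 and 364 TPM in sh-NC, and knockdown left 54.1 and 49.3 TPM. Of 9 myelomonocytic marker genes, 8 were listed (CD14 was not analysed here). Their summed level was 633 to 653 TPM in sh-NC and 6163 to 6209 TPM in sh-ANP32B. Most of this sum was LYZ, with 471 and 463 TPM in sh-NC and 5308 and 5260 TPM in sh-ANP32B. Of 5 granulocyte markers 3 were listed, with sums of 654 to 668 TPM and 1649 to 1671 TPM. Nearly all of these sums was ELANE, with 666 and 652 TPM in sh-NC and 1636 and 1656 TPM in sh-ANP32B. The 2 sums thus mostly follow single genes. The 1 erythroid marker of 6 that was listed lay between 6.65 and 7.55 TPM in all libraries, and the 2 B cell markers of 4 summed to 7.64 to 8.03 TPM in sh-NC and 1.98 to 4.22 TPM in sh-ANP32B. Of 4 megakaryocyte markers 1 was listed, with at most 1.30 TPM, and 2 of 6 T and NK cell markers (NCAM1 and NKG7) summed to 115 to 126 TPM. None of 4 stromal or epithelial markers was analysed here. The part of the myelomonocytic and granulocyte markers in the results that follow was not tested. Changes in RNA per cell and in the share of cells of one state cannot be told apart in such bulk samples.

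Knockdown of ANP32B was accompanied by higher RNA of SPI1 and CEBPB, while CEBPA, IRF8, KLF4, CEBPE and ZEB2 gave no difference that passed the test. SPI1 rose 1.42-fold and CEBPB 1.39-fold. EGR1 rose 1.19-fold, a result that was lost when any 1 library was left out. The test was limma, applied to log2(TPM + 1) of 16937 genes. A difference passed the test when p, after Benjamini-Hochberg adjustment, lay below 0.05. A gene was called when its log2 fold change also lay beyond 0.5. Of the 8 factors, 1 (SPI1) was called higher and none lower, against 17.9% called higher and 10.1% called lower among all genes tested. At the adjusted p alone, 3 of 8 were higher and none lower, against 26.0% and 19.7% of all genes. The 2 groups did not overlap for 6 of the 8 factors, all higher in sh-ANP32B, and 42.5% of all genes had groups that did not overlap in that direction (32.1% in the other). The median log2 fold change was 0.17 for the 8 factors and 0.08 for all genes, whose central range (percentile 25 to 75) ran from -0.26 to 0.45. The calls and the median of the 8 factors lay near those of all genes. Groups without overlap were more common on the higher side (6 of 8) and absent on the lower side. Counts over 8 genes are small, and a difference from the background was not tested.

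**Figure D1:**
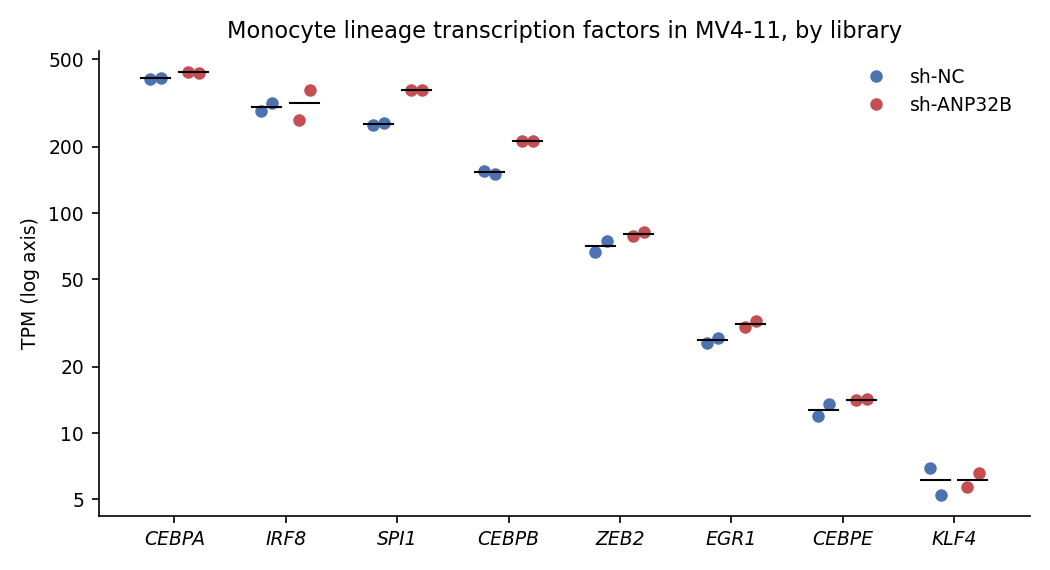
TPM on a log axis of the 8 factors in each library, sorted by the sh-NC mean, with points for libraries (blue sh-NC, red sh-ANP32B) and black lines for group means. The red points of SPI1 (361 and 361 TPM) and CEBPB (212 and 212 TPM) sit above the blue ones, and those of IRF8 (266 and 364 TPM) lie on both sides.

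SPI1 (ENSG00000066336), on chromosome 11 (hg38, minus strand, 47354860 to 47378547), was at 250.3 and 257 TPM in sh-NC, and both libraries of sh-ANP32B were at 361 TPM. Both knockdown libraries lay above both control libraries, and they differed from each other by less than the controls did. The mean was 254 ± 4.81 TPM (SD, n = 2) against 361 ± 0.456 TPM (SD, n = 2). This gave a log2 fold change of 0.51 (SE 0.036, limma, adjusted p = 3.35e-04), and 77.7% of all genes tested lay below it. SPI1 thus sat just outside the fold limit, with a 95% interval from 0.42 to 0.60. The call ended with sh-NC replicate 1 left out (0.49) and with median-of-ratios scaling of the libraries (0.41), since both values fall inside the fold limit. SPI1 shares no exonic bases with another annotated gene.

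Among the C/EBP genes, CEBPB, whose product drives inflammatory and macrophage genes, had 155 and 151 TPM in sh-NC and 212 and 212 TPM in sh-ANP32B. The groups were well apart, and the knockdown libraries nearly coincided. CEBPB thus had a log2 fold change of 0.47 (SE 0.039, limma, adjusted p = 5.22e-04), just inside the fold limit. Its 95% interval ran from 0.37 to 0.57, and 76.1% of all genes lay below the estimate. CEBPB (chromosome 20, from 50190830 to 50192668) is a gene of 1 exon and shares 231 exonic bases with CEBPB-AS1 on the opposite strand.

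CEBPA had the highest level of the 8 factors in both groups, with 407 and 413 TPM in sh-NC and 438 and 434 TPM in sh-ANP32B. The groups did not overlap, and yet the step between them was small. For CEBPA the log2 fold change was 0.09, with a 95% interval from 0.0038 to 0.17 (adjusted p = 0.0822 from limma). This is close to the median of all genes, and 50.6% of genes lay below CEBPA. CEBPA (chromosome 19, from 33299934 to 33302534) shares 659 and 482 exonic bases with 2 non-coding genes on the opposite strand. Whether the counting kept the strand is not given in the sources used here.

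CEBPE, the granulocyte factor, was low, with 11.9 and 13.5 TPM in sh-NC and 14.1 and 14.3 TPM in sh-ANP32B. All values lay within a narrow band, and the distance between the control libraries was larger than that from the higher of them to the knockdown libraries. The log2 fold change of CEBPE was 0.15, with a 95% interval from -0.11 to 0.41 (adjusted p = 0.291 from limma).

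The makeup of the C/EBP pool moved with CEBPB. As TPM are per length, the 5 C/EBP genes analysed (CEBPA, CEBPB, CEBPE, CEBPG and CEBPZ) could be summed, to 685 and 681 TPM in sh-NC and 748 and 739.9 TPM in sh-ANP32B. Of this sum, CEBPB held 22.6% and 22.1% in sh-NC, which compares with 28.4% and 28.7% after knockdown. CEBPA held 59.4% and 60.6% in sh-NC, against 58.5% and 58.6% after knockdown. CEBPB thus gained 6.16 percentage points on average and CEBPA differed by -1.44. The share of CEBPZ, a CCAAT-box factor of the nucleolus that is not a bZIP protein, went from 8.84% and 8.07% to 5.08% and 4.85%. Its mean level fell from 57.8 TPM in sh-NC to 37.0 TPM in sh-ANP32B, which by itself raises the shares of the other genes, CEBPA included. For each of these 3 shares the exact permutation test (two-sided) gave p = 0.333, the smallest p that 2 libraries against 2 allow. The ratio of CEBPA to CEBPB was 2.62 and 2.74 in sh-NC, against 2.06 and 2.04 after knockdown, and a common factor on a library leaves this ratio as it is. The ratio of CEBPA to SPI1 likewise went from 1.63 and 1.61 to 1.21 and 1.20.

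**Figure D2:**
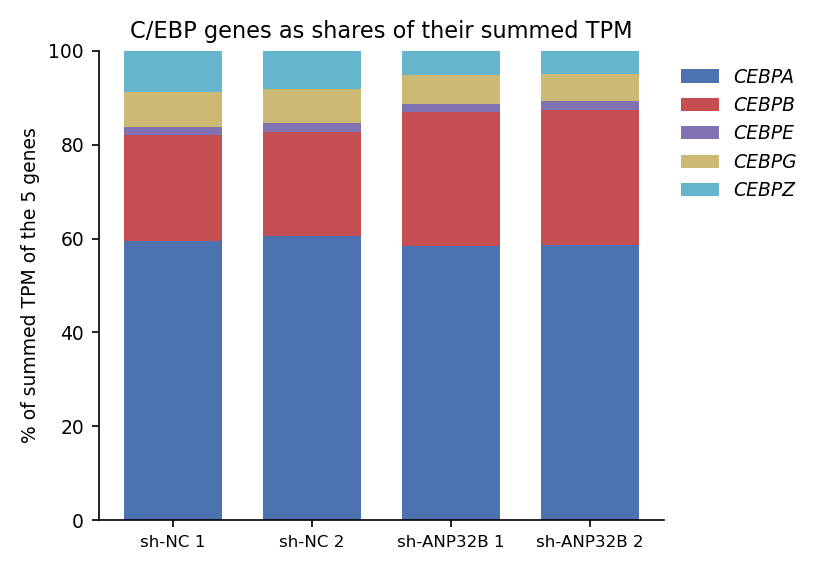
Stacked bars for each library of the share that each of 5 C/EBP genes holds in their summed TPM, in percent. The CEBPB part grows from 22.4% (mean of sh-NC) to 28.5% (mean of sh-ANP32B), and the CEBPZ part shrinks from 8.46% to 4.97%.

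IRF8, the partner of PU.1 in the monocyte line, stood second in sh-NC, with 291 and 315 TPM. The sh-ANP32B libraries held 266 and 364 TPM, so the lowest and the highest value of the 4 were both knockdown libraries. In TPM no other of the 8 factors had so wide a spread within a group (SD 69.3 TPM, n = 2). For IRF8 the log2 fold change was 0.040, with a 95% interval from -0.32 to 0.40 (adjusted p = 0.846 from limma). Without sh-ANP32B replicate 1 it was 0.27 and passed the test (limma, adjusted p = 0.0274), and without sh-ANP32B replicate 2 it was -0.19, and it was also negative (-0.018) without sh-NC replicate 1. The sign of IRF8 thus changed with the library left out. IRF8 lies on the plus strand of chromosome 16, from 85899116 to 85922606.

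KLF4, a Krüppel-like factor that promotes monocyte maturation, had the lowest level, with 6.98 and 5.26 TPM in sh-NC and 5.66 and 6.57 TPM in sh-ANP32B. The groups overlapped, and their means were both 6.12 TPM. KLF4 thus had a log2 fold change of 0.0074, with a 95% interval from -0.43 to 0.44 (adjusted p = 0.978 from limma). The annotation names 1 pseudogene of KLF4, which may share reads with it.

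EGR1, an immediate-early zinc finger factor linked to macrophage differentiation, had 25.6 and 27.2 TPM in sh-NC and 30.4 and 32.3 TPM in sh-ANP32B. The groups did not overlap, and the gap between them was wider than the distance between the libraries of either group. EGR1 had a log2 fold change of 0.24 (SE 0.073, limma, adjusted p = 0.0429). With 1 library left out, its adjusted p in limma lay between 0.0699 and 0.165, and with median-of-ratios scaling it was 0.137. EGR1 is on chromosome 5, from 138465479 to 138469303.

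ZEB2 had 66.6 and 74.3 TPM in sh-NC and 78.3 and 82.3 TPM in sh-ANP32B. The groups did not overlap, although the control libraries lay farther apart than the nearest libraries of the 2 groups. ZEB2 had a log2 fold change of 0.19, with a 95% interval from 0.018 to 0.36 (adjusted p = 0.0705 from limma). It passed the test without sh-NC replicate 2 (0.27, limma, adjusted p = 0.0367). ZEB2 (chromosome 2, from 144364364 to 144521057) shares 1299 exonic bases with ZEB2-AS1 on the opposite strand, which was low (1.07 to 1.64 TPM).

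**Figure D3:**
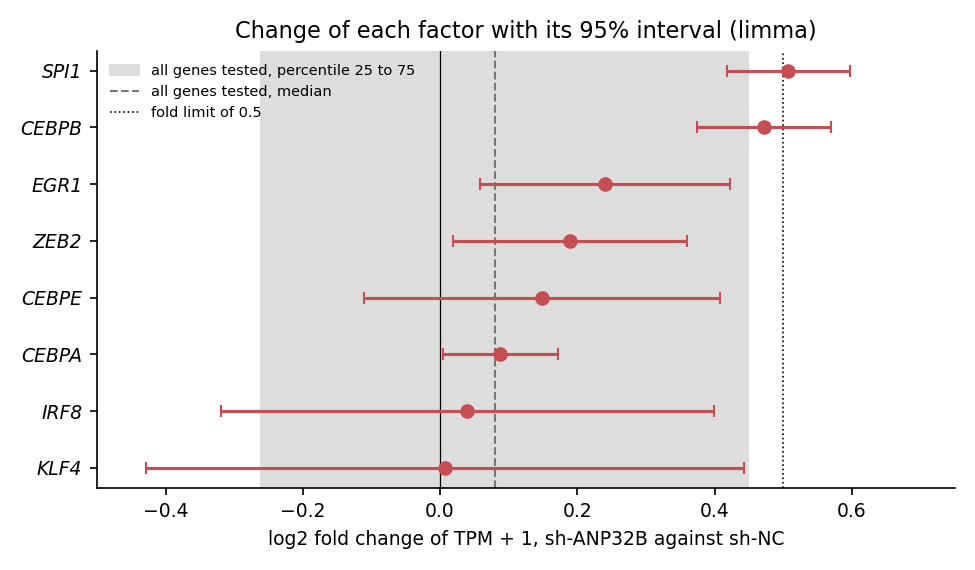
Log2 fold change of TPM + 1, sh-ANP32B against sh-NC, for each factor (points) with its 95% interval from limma (bars). The grey band is the central range of all genes (-0.26 to 0.45), the dashed line their median (0.08) and the dotted line the fold limit of 0.5. SPI1 (0.51) and CEBPB (0.47) lie right of the band and the other factors inside it.

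Ordered by level, the 8 factors kept nearly the same rank in both groups. In sh-NC the order was CEBPA, IRF8, SPI1, CEBPB, ZEB2, EGR1, CEBPE and KLF4, and no neighbours overlapped. In sh-ANP32B the mean of SPI1 (361 TPM) lay above that of IRF8 (315 TPM). These neighbours overlapped, since one IRF8 library lay above both SPI1 libraries. The summed TPM of the 8 factors was 1214 and 1255 in sh-NC, compared with 1405 and 1506 after knockdown.

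How the libraries were scaled moved the zero point. The log2 fold changes of all genes had a median of 0.08 without rescaling, -0.04 after quantile normalization and -0.0070 with median-of-ratios scaling. Lower genes made up 36.1% of all calls as deposited, 49.8% after quantile normalization and 49.0% with median-of-ratios scaling. Relative to the median of all genes, SPI1 stayed between 0.42 and 0.60 and CEBPB between 0.36 and 0.55 over every setting run. CEBPA lay between -0.0033 and 0.13 relative to that median, and IRF8 between -0.27 and 0.18.

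**Figure D4:**
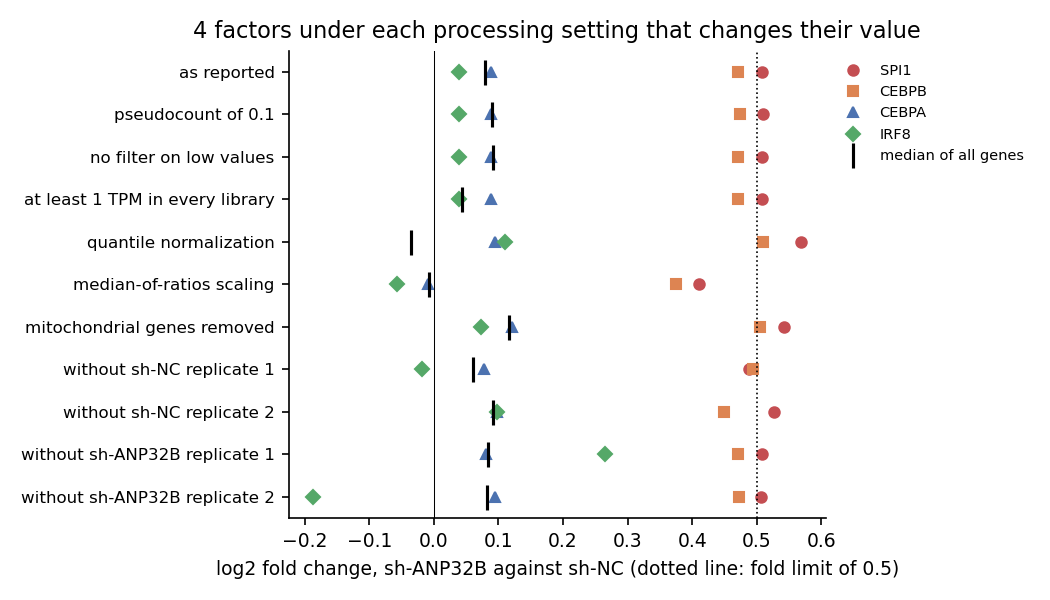
Log2 fold change of SPI1, CEBPB, CEBPA and IRF8 (symbols) and the median of all genes (black ticks) under each setting that changes a value, with the fold limit as a dotted line. SPI1 runs from 0.41 to 0.57 and CEBPB from 0.37 to 0.51, whereas IRF8 lies on either side of 0, from -0.19 to 0.27.

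The relatives, partners, regulators and described targets of the 8 factors were then followed in 10 lists of 127 genes, of which 103 were analysed. Of these 103 genes, 32 (31.1%) were called higher and 6 (5.83%) lower, against 17.9% and 10.1% of all genes tested, the shares to set beside each list. With at least 1 TPM required in every library, a filter that drops genes tested only through the group where they are high, 28 were called higher and 7 lower. The list of described targets alone gave 16 of the 32 genes called higher, from 21 analysed, and none of those called lower. The total is therefore not a result about relatives, partners and regulators. Of the other monocyte and macrophage regulators, 6 of 17 were called higher and none lower (median 0.11), and 5 were called higher with 1 TPM in every library. The number was 5 with the replicate block and 4 with quantile normalization or median-of-ratios scaling, but 8 with mitochondrial genes removed. TFE3 rose from 16.2 and 14.7 TPM to 29.1 and 31.4 TPM (0.93), and STAT3 (0.87), TFEC (0.66), MITF (0.57) and BCL6 (0.52) were also called higher. MITF lay close to the p limit (limma, adjusted p = 0.0494) and BCL6 close to the fold limit. TFE3, TFEC and MITF belong to the family of lysosomal regulators, and TFEB, its remaining member, had 0.49 with an adjusted p of 0.00493 in limma. BHLHE40 was lowest, at -0.38.

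Of the C/EBP relatives, 4 of 7 were called lower and none higher (median -0.61). ATF4, the factor of the amino acid stress response, had 384 and 409 TPM in sh-NC and 230.4 and 216 TPM in sh-ANP32B (log2 fold change -0.83, adjusted p = 2.46e-04 from limma). The annotation names 4 pseudogenes of ATF4, so its reads may be mixed with theirs. BATF3 (-0.74), CEBPZ (-0.63) and NFIL3 (-0.61) were also called lower. BATF, like CEBPB, was higher inside the fold limit (0.33, limma, adjusted p = 0.0394). DDIT3 had -0.26 (limma, adjusted p = 0.0912), and CEBPG, a short C/EBP without a transactivation domain, had -0.15 (adjusted p = 0.0831 from limma).

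Among the ETS factors and PU.1 partners, 1 of 12 (8.33%) was called higher and 1 (8.33%) lower (median -0.0083), both below the shares over all genes. ETS1 rose from 21.5 and 22.6 TPM to 34.9 and 35.5 TPM (0.65), and ERG, a stem cell factor, fell by 0.79 on the log2 scale to 2.18 and 2.21 TPM. ERG was not called without sh-NC replicate 2, without sh-ANP32B replicate 1 or without sh-ANP32B replicate 2, so that the number called lower was then 0. RUNX1, which binds beside PU.1, had 0.14 (adjusted p = 0.0676 from limma) and its partner CBFB had -0.15 (adjusted p = 0.0375 from limma).

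In the IRF family, 2 of 8 were called higher and none lower (median 0.31). With median-of-ratios scaling 1 was called lower, and with mitochondrial genes removed 3 were called higher. The counts also changed when either sh-ANP32B library was left out. IRF9, the DNA-binding part of the interferon complex ISGF3, rose from 9.85 and 8.62 TPM to 23.4 and 22.2 TPM (1.22), and IRF7 rose by 1.06. IRF2BP1, a corepressor that binds IRF2, was lowest at -0.45. In the KLF family, 3 of 9 were called higher (KLF2 with 1.04, KLF7 with 0.66 and KLF6 with 0.66) and none lower (median 0.34). KLF16 was lowest at -0.35. The annotation names 4 pseudogenes of KLF2, whose level was low (2.36 to 7.30 TPM).

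Of the 13 EGR and AP-1 genes analysed, 2 (15.4%) were called higher and none lower (median 0.031), which is near the share over all genes. FOS, like EGR1 an immediate-early gene, rose from 27.2 and 23.6 TPM to 59.7 and 58.6 TPM (1.19), and JUND rose by 0.60. IER2, also an immediate-early gene, was lowest, at -0.27, and DUSP1 had -0.041 (adjusted p = 0.870 from limma). NAB1, a corepressor of EGR1, had -0.20 (adjusted p = 0.0332 from limma), and its relative NAB2 had 0.031. None of the 3 genes of the ZEB, SNAI and CtBP list was called, with values from 0.027 (SNAI1) to 0.27 (SNAI3).

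Of the ID and Tribbles genes, 2 of 7 were called higher and none lower (median -0.022). Without sh-NC replicate 2 and without sh-ANP32B replicate 2, 1 was called higher and 1 lower. ID2, an inhibitor of bHLH factors that is induced in dendritic cells, rose from 41.5 and 38.3 TPM to 94.2 and 91.9 TPM (1.20). TRIB1, which marks C/EBPα for degradation with COP1, was low, at 0.445 and 0.341 TPM in sh-NC and 1.75 and 2.00 TPM in sh-ANP32B (1.05). It was tested only through sh-ANP32B, where it is high, and with 1 TPM in every library 1 gene of this list was called higher. COP1 had -0.022, and ID3 was lowest at -0.53 (adjusted p = 0.0972 from limma). Of 6 factors of other blood fates, BCL11A (-0.56), a B cell and dendritic cell factor, was called lower and none higher. Without sh-NC replicate 2 and without sh-ANP32B replicate 1, 0 of the 6 were called lower. GFI1, the granulocytic counterpart of IRF8, had 204 and 222 TPM in sh-NC and 200.2 and 198 TPM in sh-ANP32B (-0.09, adjusted p = 0.194 from limma). GATA2 was highest in this list, at 0.33.

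The described myeloid targets of PU.1, C/EBP, IRF8 and EGR1 moved much farther than the factors. Of 21 analysed, 16 were called higher and none lower, and the median log2 fold change was 1.55, against 0.17 for the 8 factors and 0.08 for all genes. S100A8 and S100A9, which form the neutrophil and monocyte protein calprotectin, lay under 1 TPM in both sh-NC libraries and were tested only through sh-ANP32B. With 1 TPM in every library, 14 targets were called higher. Values ran from 0.037 (IL6R) to 3.50 (LYZ, lysozyme). The receptor CSF3R rose from 62.8 and 71.4 TPM to 218 and 214 TPM (1.68), and the integrin chain ITGAM from 3.51 and 3.59 TPM to 26.1 and 26.4 TPM (2.58). CSF1R, a classical PU.1 target and the receptor for the monocyte growth factor, was low, with 0.96 and 1.39 TPM against 2.36 and 2.04 TPM (0.56, adjusted p = 0.0828 from limma). Granule genes split. ELANE rose by 1.32, whereas PRTN3 (0.23), CTSG (0.28) and AZU1 (0.49) passed the test inside the fold limit. CAMP, a late granule gene described as a target of CEBPE, rose from 1.05 and 1.19 TPM to 10.8 and 13.7 TPM (2.64). These targets were listed with earlier results of these data known, and several are also myelomonocytic markers.

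**Figure D5:**
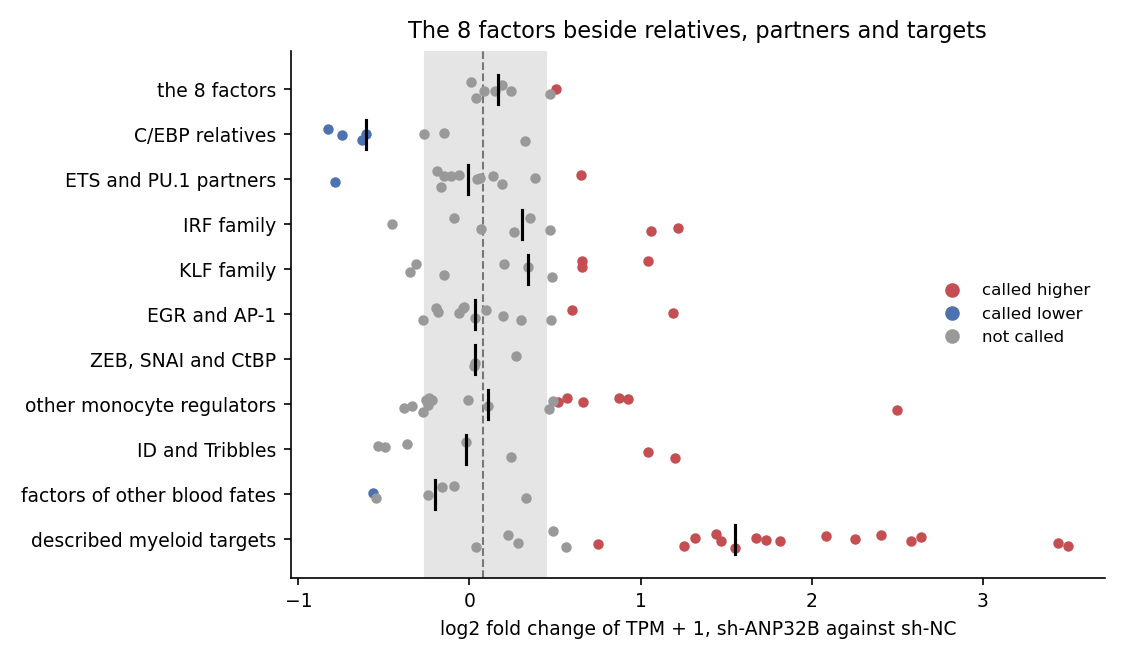
Log2 fold change of TPM + 1, sh-ANP32B against sh-NC, of each gene (points) in the 8 factors and in 10 lists, with list medians as black bars, the central range of all genes in grey and their median as a dashed line. The targets reach 3.50 with a median of 1.55, while the 8 factors stop at 0.51.

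Patterns over the 4 libraries were compared with those of the 103 listed genes, by the root-mean-square distance of log2(TPM + 1) after each gene was centred. KLF13 was nearest to SPI1 (distance 0.017), followed by FOSL2 (0.025). KLF13 was also nearest to CEBPB (0.035), followed by TFEB (0.037). The nearest genes to CEBPA were JUNB (0.023) and CTBP1 (0.031), and those to EGR1 were PRTN3 (0.037) and CTSG (0.046). KLF4 lay nearest to SNAI1 (0.014), CEBPE to BACH1 (0.035), and ZEB2 to BACH1 (0.043). IRF8 had no near neighbour, as its nearest gene ELF2 lay at 0.123. With 4 libraries in 2 groups this likeness mostly reflects the size of the step between the groups for SPI1 and CEBPB. KLF4 (0.0074) and SNAI1 (0.027) had almost no step, and their likeness lay in the differences within groups. For IRF8 (0.040) the distance likewise reflects the spread of its knockdown libraries.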

How the data were processed

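RNA-seq of 4 MV4-11 libraries, 2 sh-NC and 2 sh-ANP32B, was used, with groups and replicate numbers from the sample titles. The authors aligned reads to hg38 with HISAT2 (version 2.0.5) and deposited 1 TPM value per gene and library. The unit was read from the values, and the counting tool and annotation are not given in the sources used here. The knockdown columns carry the mark S3, taken as the ANP32B hairpin. Of 18885 gene identifiers, 17290 were matched to a symbol through a table of gene names, and positions on hg38 were taken from GENCODE version 44.

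Because TPM are not counts, the count test of the study was not repeated. limma (version 3.58.1, R 4.3.3) was applied to log2(TPM + 1), using lmFit and a trended eBayes. A gene was tested when 2 or more libraries reached 1 TPM, which left 16937, and p-values were adjusted over all of them (Benjamini-Hochberg). Calls needed both an adjusted p under 0.05 and a log2 fold change larger in size than 0.5. With 2 libraries against 2, an exact test of 1 gene cannot go below p = 0.333. Python 3.11.15 with pandas 2.3.3 and matplotlib 3.10.9 made the tables and plots.

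The 9 members and the 10 lists were chosen with earlier results of these data known. Named genes are the members, ANP32B, the extremes of each list, genes a count needs and the 2 genes of most like pattern. Other list genes were named after their values were seen. Alternatives covered the pseudocount, filters, scaling, the replicate block, the trend, the limits and each library left out. Kasumi-1 cells and CUT&Tag data were not analysed here. Not every gene counted in the lists is reported here by name.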

Additional observations from a re-analysis of the deposited data

How the results depend on the processing

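The number of the 8 factors called higher (1, SPI1) was 2 after quantile normalization and 2 with mitochondrial genes removed, where CEBPB reached 0.51 in both, 0 with median-of-ratios scaling, where SPI1 had 0.41, and 0 at a fold limit of 1. Leaving out each library in turn gave 0 or 1 called factor, with SPI1 between 0.49 and 0.53, and 0 only without sh-NC replicate 1. At the p limit alone 3 factors were higher (SPI1, CEBPB and EGR1), 5 with mitochondrial genes removed and 5 at an unadjusted p. The number was 2 (SPI1 and CEBPB) with median-of-ratios scaling, with the replicate block, with no trend, without sh-NC replicate 1 and without sh-ANP32B replicate 2. It was 3 with CEBPA in place of EGR1 after quantile normalization (limma, adjusted p = 0.0466), with ZEB2 in its place without sh-NC replicate 2 (0.0367) and with IRF8 in its place without sh-ANP32B replicate 1 (0.0274). Signs turned for KLF4 with quantile normalization (-0.20) and for CEBPA (-0.0093), IRF8 (-0.058) and KLF4 (-0.076) with median-of-ratios scaling, none of which passed the test there. With a library left out, IRF8 ran from -0.19 to 0.27 and KLF4 from -0.17 to 0.18. At a fold limit of 1, 1136 genes were called higher and 273 lower of all genes, and none of the listed genes was called lower.

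The replicate numbers did not pair the libraries, since libraries of like number did not deviate together (correlation -0.0232). Blocking on the replicate number, SPI1 had adjusted p = 0.00203 and CEBPB adjusted p = 0.00279 in limma, and EGR1 missed the limit with adjusted p = 0.0541. The replicate block changed no call among the 8 factors, and no factor besides EGR1 crossed the p limit. With no trend in limma, SPI1 had an SE of 0.065 (adjusted p = 0.0137) and CEBPB an SE of 0.066 (adjusted p = 0.0155). With the trend these SE were 0.036 and 0.039, so the small p-values rest in part on that choice. Precision rests on 2 libraries a group, and TPM give no depth.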
